A study of Mus musculus with 13 samples.

Results

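The genes described here are 9 genes of the B cell receptor and the B lineage, namely Ighm, Ighd, Cd79a, Cd79b, Ms4a1, Cd22, Pax5, Ebf1 and Blnk. They were taken by symbol from a table of 32544 gene symbols, all 9 had a row, and all 9 passed the filter on low counts that left 12496 genes for testing. Lungs of male, wild-type C57BL/6J mice, bought at 7 weeks of age, were sampled after 5 days of breathing either 21% oxygen (normoxia, 7 libraries) or 80% oxygen (hyperoxia, 6 libraries). The lungs were perfused with buffer and frozen, and total RNA of the tissue was read by Quant-seq, which counts the 3′ ends of polyadenylated transcripts. The labels give no allele or agent other than oxygen, which is the only stated difference between the groups. In RNA of a whole lung, fewer B cells and less of a transcript per B cell cannot be told apart.

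B cells recognise antigen through a receptor on their surface. Membrane immunoglobulin, of the IgM and IgD classes on naive cells, binds the antigen, and the CD79A and CD79B chains bound to it carry the signal inward, where kinases phosphorylate the adaptor BLNK. CD22 dampens this signal, CD20 (Ms4a1) sits beside it in the membrane, and the transcription factors EBF1 and PAX5 establish and hold B cell identity. The adult lung holds circulating and resident B cells, most of them naive. Ebf1 is also expressed by pericytes and other mesenchymal cells, and Blnk by some myeloid cells.

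The libraries held between 1607111 and 4540288 counts, and a count of 3, taken as the floor, stood for 0.656 to 1.84 CPM (counts scaled by TMM to a common library total). Hyperoxia replicate 1 was unlike the rest, with a mean correlation of log2 CPM of 0.779 with the other 12 libraries, where the others had 0.886 to 0.919. A count was found for 14170 symbols in it and for 15476 to 16595 symbols in the normoxic libraries. It was kept, and the log2 fold changes of the 9 genes without it are plotted and, where it ended or made a call, given in the text. Without it, 1934 genes were higher and 1699 lower over all genes tested. Each library name begins with a letter, which lies between B and M in 8 libraries (5 normoxic, 3 hyperoxic) and between O and S in the other 5 (2 normoxic, 3 hyperoxic). The labels do not say what the letters stand for, so values within each letter set are given as well. Nothing in the labels ties libraries to single mice, so that the p-values measure the spread between these libraries, and floors and intervals cover counting error and that spread only.

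Promoter sequences, from 250 bases before to 50 bases after the RefSeq start of a gene on GRCm38.p6, were at hand for 5 of the 9 genes. Those of Cd79a, Cd22 and Blnk are shown, since their changes were unequal (as tested relative to Cd79a) and their windows held letters of motifs bound by B lineage factors. Capitals mark, on either strand, the octamer motif ATGCAAAT, the EBF motif CCCNNGGG, the E-box CAGGTG and the ETS motif AGGAAGT. No 2 of these matches overlap in the windows shown.
Cd79a, chr7:24897247-24897546, plus strand: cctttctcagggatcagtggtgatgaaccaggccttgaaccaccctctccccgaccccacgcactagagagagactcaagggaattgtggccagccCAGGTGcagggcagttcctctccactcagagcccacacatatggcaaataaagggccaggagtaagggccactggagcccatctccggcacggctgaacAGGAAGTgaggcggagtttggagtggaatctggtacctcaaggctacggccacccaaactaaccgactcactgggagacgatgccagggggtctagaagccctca
Cd22, chr7:30878979-30879278, minus strand: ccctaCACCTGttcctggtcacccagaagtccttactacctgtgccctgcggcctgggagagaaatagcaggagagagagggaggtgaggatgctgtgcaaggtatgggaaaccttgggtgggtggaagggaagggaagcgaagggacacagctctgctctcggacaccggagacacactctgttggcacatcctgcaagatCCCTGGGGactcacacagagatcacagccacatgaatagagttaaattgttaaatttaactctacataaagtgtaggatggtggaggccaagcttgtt
Blnk, chr19:40994172-40994471, minus strand: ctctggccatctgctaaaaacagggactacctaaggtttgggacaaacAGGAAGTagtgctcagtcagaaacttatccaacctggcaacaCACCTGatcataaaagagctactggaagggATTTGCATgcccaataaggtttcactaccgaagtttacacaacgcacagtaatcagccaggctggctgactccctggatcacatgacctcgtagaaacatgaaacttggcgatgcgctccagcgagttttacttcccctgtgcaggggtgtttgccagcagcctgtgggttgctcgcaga
The Cd79a window holds an E-box that begins 154 bases and an ETS motif that begins 55 bases before the start. In the Cd22 window an E-box begins 245 bases and an EBF motif 48 bases before the start. The Blnk window holds an ETS motif, an E-box and an octamer, beginning 202, 160 and 130 bases before the start. The RefSeq starts used differ from the ends of the GENCODE spans given below, and the windows of Cd22 and Blnk lie wholly within those spans. The window of Pax5 and both windows of Ebf1 held none of the 4 motifs. Among all 32851 windows of the table, 1.74% held the octamer, 13.7% the EBF motif, 20.2% the E-box and 9.35% the ETS motif. These matches describe letters only, and only exact matches were sought, so that a binding site with other letters is not marked.

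Hyperoxic lung had lower mRNA of the B cell receptor than normoxic lung. With a threshold of 0.05 on the adjusted p of edgeR, 8 of the 9 genes were lower in hyperoxia and none was higher, where 10.8% of all genes tested were lower and 11.8% higher (1346 and 1473 genes). That background moved with the scaling and the test, since library size alone gave 1579 lower and 1179 higher genes, limma-voom 1496 and 1374 and limma on the deposited log values 1729 and 1097. Library size alone and limma on log values put the medians of all genes at −0.10 and −0.16 in place of −0.03, and the 9 genes kept their direction under all of these. Of these 8, 5 also had a log2 fold change below −1.5, namely Ighm, Ighd, Cd79a, Cd79b and Pax5, against 2.35% of all genes tested. These 5 genes were 3.47- to 4.87-fold lower. Ms4a1 fell 2.56-fold, and Ebf1 and Blnk fell by less than 2-fold. Cd22 was the gene that did not pass (edgeR adjusted p = 0.0839). In 5 genes, Ighm, Ighd, Cd79a, Cd79b and Blnk, every hyperoxic library lay below every normoxic library, which was so for 5.23% of all genes tested. The summed level of the 9 genes was 471 to 543 CPM in normoxia and 161 to 264 CPM in hyperoxia. Without Ebf1, the most abundant of them, the sums were 289 to 353 and 75.7 to 133 CPM.

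**Figure D1:**
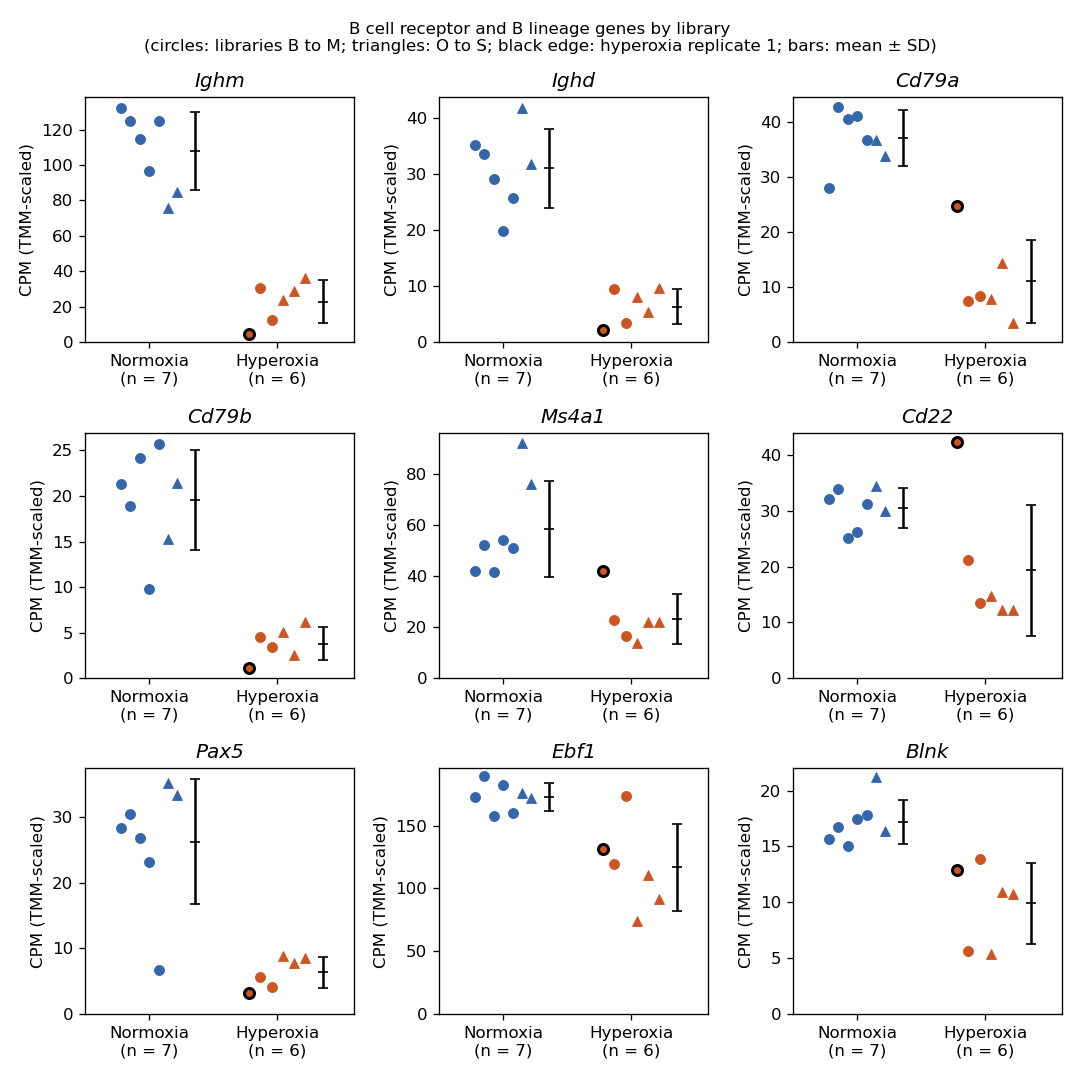
TMM-scaled CPM (vertical axes, from 0) of each of the 9 genes in the 7 normoxic (blue) and 6 hyperoxic (orange) libraries, with the mean and SD of each group as bars, circles for libraries B to M, triangles for O to S and a black edge for hyperoxia replicate 1. The groups do not overlap for Ighm, Ighd, Cd79a, Cd79b and Blnk, and hyperoxia replicate 1 is the lowest hyperoxic library for Ighm, Ighd, Cd79b and Pax5 but the highest for Cd79a, Ms4a1 and Cd22.

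The antigen-binding chains were followed with the constant genes of the heavy chain. Ighm, the constant region of IgM, is annotated on chromosome 12 (GRCm38) at 113418558 to 113422730, on the minus strand (GENCODE M21). Its lowest, median and highest levels were 75.8, 114 and 132 CPM in normoxia and 4.83, 26.4 and 36.5 CPM in hyperoxia. The highest hyperoxic library was thus below the lowest normoxic library, and the low end of hyperoxia was replicate 1. The means were 108 ± 22 (SD, n = 7) and 22.9 ± 12 CPM (SD, n = 6), and Ighm changed by −2.21 on the log2 scale (log2 fold change, with SE for its standard error: SE 0.32, edgeR adjusted p = 1.8e-04). This is a 4.63-fold decrease, with a 95% interval of 2.88 to 7.42. Without hyperoxia replicate 1 the log2 fold change was −2.0.

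Ighd, the constant region of IgD, which mature naive B cells make together with IgM by alternative splicing of 1 transcript, lies next to it from 113406604 to 113416324. The lowest, median and highest levels were 19.9, 31.8 and 41.8 CPM in normoxia and 2.14, 6.70 and 9.62 CPM in hyperoxia, again without overlap. The means were 31.0 ± 7.03 (SD, n = 7) and 6.35 ± 3.17 CPM (SD, n = 6), or −2.24 on the log2 scale (SE 0.30, edgeR adjusted p = 7.6e-05). Both heavy chain genes therefore had nearly the same log2 fold change. The count of Ighd per count of Ighm had a median of 0.266 in normoxia (range 0.205 to 0.552) and 0.293 in hyperoxia (range 0.183 to 0.444), and these ranges overlapped.

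The signalling chains of the receptor were lower as well. Cd79a, the Ig-alpha chain, lies on chromosome 7 from 24897381 to 24902197 on the plus strand. Levels (lowest, median and highest) were 28.0, 36.8 and 42.6 CPM in normoxia and 3.50, 8.07 and 24.7 CPM in hyperoxia. The groups did not overlap, although hyperoxia replicate 1, at 24.7 CPM, came close to the lowest normoxic library and the other 5 hyperoxic libraries reached at most 14.4 CPM. The change on the log2 scale was −1.80 (SE 0.33, edgeR adjusted p = 0.00103), and −2.15 without that library.

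Cd79b, the Ig-beta chain, lies on chromosome 11 from 106311341 to 106314762 on the minus strand. Its change was −2.28 on the log2 scale (SE 0.32, edgeR adjusted p = 1.3e-04), a 4.87-fold decrease. Its lowest, median and highest levels were 9.76, 21.3 and 25.7 CPM in normoxia and 1.07, 4.00 and 6.12 CPM in hyperoxia. In hyperoxia replicate 1 this gene had 2 counts, below the floor, so that its level there is poorly known. Although their proteins pair, the mRNA of Cd79a and Cd79b thus stood at opposite ends of the hyperoxic range in that library.

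The genes of CD20 and CD22 had log2 fold changes nearer to 0. Ms4a1, which encodes CD20, lies on chromosome 19 from 11249675 to 11266241 on the minus strand and overlaps 4930526L06Rik on the other strand. The lowest, median and highest levels were 41.5, 52.1 and 92.3 CPM in normoxia and 13.7, 22.1 and 41.8 CPM in hyperoxia. Overlap came from hyperoxia replicate 1, and the other 5 hyperoxic libraries, at up to 22.7 CPM, were below every normoxic library. The change on the log2 scale was −1.36 (SE 0.26, edgeR adjusted p = 0.00156), and −1.58 without that library, which then passed the log2 fold change of 1.5.

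Cd22, an inhibitory lectin that binds sialic acid, lies on chromosome 7 from 30865402 to 30880342 on the minus strand and overlaps Gm29439 on the other strand. Levels (lowest, median and highest) were 25.2, 31.3 and 34.6 CPM in normoxia and 12.2, 14.2 and 42.4 CPM in hyperoxia. The highest value of all 13 libraries was that of hyperoxia replicate 1, whereas the other 5 hyperoxic libraries, at 12.2 to 21.2 CPM, were below every normoxic library. The log2 fold change was −0.68 (95% interval −1.26 to −0.11, edgeR adjusted p = 0.0839) with all libraries and −1.03 (edgeR adjusted p = 3.8e-04) without that library. With all libraries it passed by limma-voom (−0.89, limma adjusted p = 0.0118), with library size alone (−0.77, edgeR adjusted p = 0.0468) and with a minimum of 10 counts in every library (−0.77, edgeR adjusted p = 0.0303), so that the call turned on that library, the scaling and the filter.

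**Figure D2:**
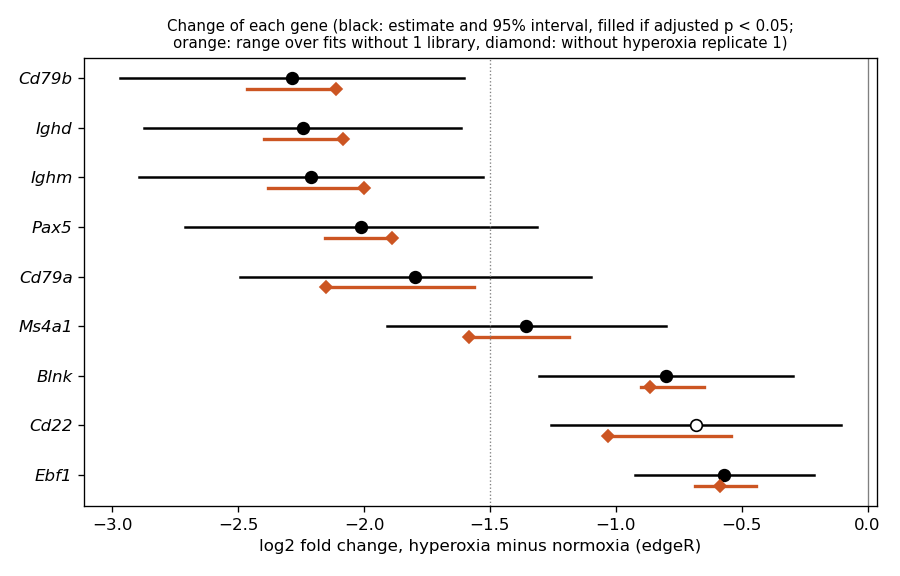
Log2 fold change of hyperoxia against normoxia (horizontal axis, edgeR) for each gene, as the estimate with its 95% interval (black, filled where the adjusted p was under 0.05) and as the range of 13 fits with 1 library left out of each (orange, with a diamond for the fit without hyperoxia replicate 1), and the dotted line marks −1.5. All estimates lie below 0, from −2.28 for Cd79b to −0.57 for Ebf1, and the open circle is Cd22.

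Both transcription factors among the 9 genes fell. Pax5, on chromosome 4 from 44524757 to 44710487 on the minus strand, is needed to commit a cell to the B lineage and to keep it there, and it overlaps Mir5120 on its own strand and 3 genes on the other. Its lowest, median and highest levels were 6.74, 28.4 and 35.1 CPM in normoxia and 3.22, 6.74 and 8.89 CPM in hyperoxia. Overlap came from normoxia replicate 5, the library with the fewest counts, since the other normoxic libraries were all above every hyperoxic library. The change on the log2 scale was −2.01 (SE 0.33, edgeR adjusted p = 4.2e-04), near those of the receptor chains.

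Ebf1, which acts upstream of Pax5 in B cell development, is on the plus strand of chromosome 11 (44617317 to 45008091) and overlaps Gm12158 on the other strand. The lowest, median and highest levels were 158, 173 and 190 CPM in normoxia and 73.8, 115 and 173 CPM in hyperoxia. Of the hyperoxic libraries 5 were below every normoxic library, and replicate 3, at 173 CPM, was within the normoxic range. A log2 change of −0.57 (SE 0.17, edgeR adjusted p = 0.0224) was a 1.48-fold decrease. The call was lost in 7 of the fits that left out 1 library (normoxia replicates 1, 2 and 4 and hyperoxia replicates 2, 4, 5 and 6), with adjusted p between 0.0549 and 0.0718. The 11 markers of pericytes and smooth muscle had a median log2 fold change of −0.27, with 2 genes lower and 2 higher, against −0.03 for all genes tested, and the median was −0.63 with limma on log values and −0.01 without hyperoxia replicate 1. Their summed level was 273 to 335 CPM in normoxia and 242 to 462 CPM in hyperoxia, and members of the list went both ways. Rgs5, a marker of pericytes, was lower (edgeR adjusted p = 0.0018), from 2.61 to 10.4 CPM in normoxia to 0.756 to 2.4 CPM in hyperoxia. This is near the floor, so that no fold is given. Cox4i2, another marker of pericytes, was lower at −0.80 (edgeR adjusted p = 0.0489), a call lost without hyperoxia replicate 1 (edgeR adjusted p = 0.057). Acta2, the smooth muscle actin, and Trpc6, a cation channel, were higher, at 0.77 and 1.24 (edgeR adjusted p = 0.00485 and 0.00668). Acta2 alone went from 133 to 226 CPM. The part of such cells in the Ebf1 value was not tested.

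Blnk, on chromosome 19 from 40928927 to 40994535 on the minus strand, is the adaptor that links the receptor to phospholipase C-gamma. Levels (lowest, median and highest) were 15.0, 16.8 and 21.2 CPM in normoxia and 5.39, 10.8 and 13.9 CPM in hyperoxia, without overlap. The change on the log2 scale was −0.80 (SE 0.24, edgeR adjusted p = 0.0235), a 1.74-fold decrease. The call was lost without normoxia replicate 4 or 6 or hyperoxia replicate 2 or 4, with adjusted p between 0.0515 and 0.0640.

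A test without a model gave the same direction for each gene. In a two-sided exact permutation test of the mean log2 CPM over all 1716 divisions of the 13 libraries into 7 and 6, p was 0.000583, the smallest the test can give, for Ighm, Ighd, Cd79a, Cd79b and Blnk. It was 0.00175 for Ms4a1, 0.00291 for Pax5 and Ebf1 and 0.0192 for Cd22 (exact permutation test).

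Whether the genes fell by unequal amounts was asked with the level of each gene relative to Cd79a, a measure in which the scaling of the libraries cancels. Ebf1, Cd22 and Blnk had smaller changes than Cd79a. On the log2 scale Ebf1 rose relative to Cd79a by 1.29 (95% interval 0.57 to 2.01, exact permutation test, p adjusted over 8 genes 0.00699). Cd22 rose relative to Cd79a by 1.13 (0.52 to 1.69, exact permutation adjusted p = 0.00932) and Blnk by 1.08 (0.41 to 1.84, exact permutation adjusted p = 0.00699). The same 3 genes passed in each of the 13 repeats that left out 1 library. Ms4a1 differed from Cd79a by 0.56, with an interval of −0.11 to 1.29 that includes no difference (exact permutation adjusted p = 0.207). For Ighm, Ighd, Cd79b and Pax5 the differences were −0.52, −0.39, −0.34 and 0.03, and the intervals were wide, from −2.04 to 0.81 for Ighm and from −1.26 to 1.29 for Pax5 (exact permutation adjusted p between 0.707 and 0.968). In hyperoxia replicate 1 the log2 ratio to Cd79a was −2.21 for Ighm and −3.87 for Cd79b, below the normoxic ranges of 1.03 to 2.21 and −2.0 to −0.39. Without that library the differences of Ighm, Ighd, Cd79b and Pax5 from Cd79a were 0.12, 0.11, 0.17 and 0.45, so that it set the sign of the first 3.

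**Figure D3:**
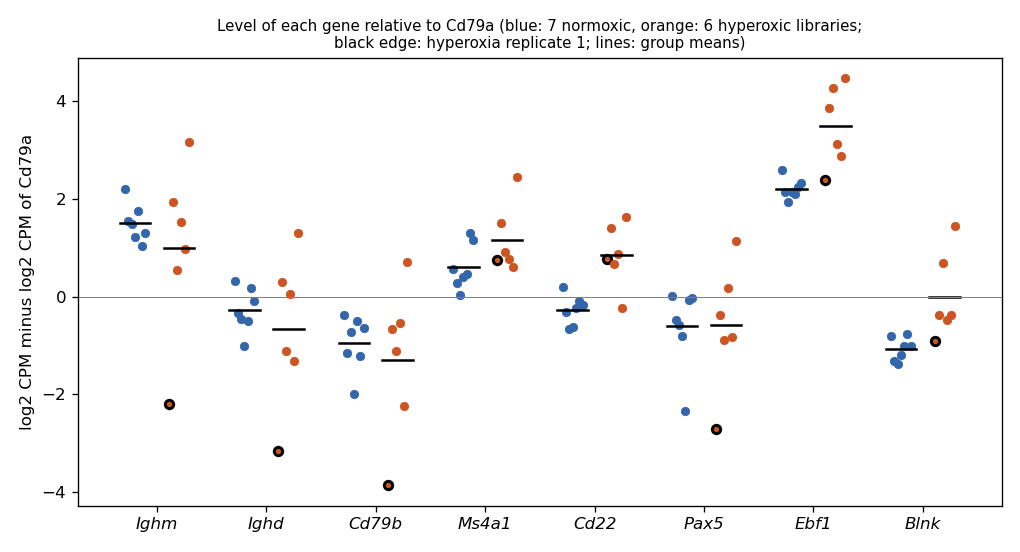
Log2 CPM of each of the other 8 genes minus that of Cd79a (vertical axis) in the 7 normoxic (blue) and 6 hyperoxic (orange) libraries, with lines for the group means and a black edge for hyperoxia replicate 1. The hyperoxic means of Ebf1, Cd22 and Blnk lie above the normoxic means by 1.29, 1.13 and 1.08, and hyperoxia replicate 1 is the lowest point for Ighm, Ighd, Cd79b and Pax5.

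The decreases were compared between the letter sets of the library names. Within libraries B to M the difference in mean log2 CPM was −3.18 for Ighm, −2.55 for Ighd, −1.63 for Cd79a, −2.56 for Cd79b and −2.12 for Pax5. Whether the sets differed was not tested. Within libraries O to S the corresponding differences were −1.43, −2.19, −2.15, −1.91 and −1.94. For these 5 genes every hyperoxic library was below every normoxic library within each set, which was so for 10.8% of all genes tested within B to M and for 27.5% within O to S. Ms4a1, Cd22 and Ebf1 had smaller differences within B to M, at −0.92, −0.35 and −0.30, than within O to S, at −2.11, −1.26 and −0.93, and their groups overlapped within B to M. A fit within B to M alone, the set that holds hyperoxia replicate 1, called 4 of the 9 genes lower, against 3.47% of all genes in that fit. A fit within O to S called 8, against 10.3%, and there Blnk was the gene that did not pass (edgeR adjusted p = 0.0568). The normoxic libraries themselves differed between the sets, since Ms4a1 stood at 41.5 to 54.2 CPM in B to M and at 76.1 to 92.3 CPM in O to S, whereas Ighm stood at 96.9 to 132 and 75.8 to 85.1 CPM. With the letter set as a term in the fit, the log2 fold changes of all 9 genes lay between −2.37 for Ighd and −0.53 for Ebf1. All genes but Cd22 passed in it (edgeR adjusted p = 0.088 for Cd22), as in the fit without that term.

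**Figure D4:**
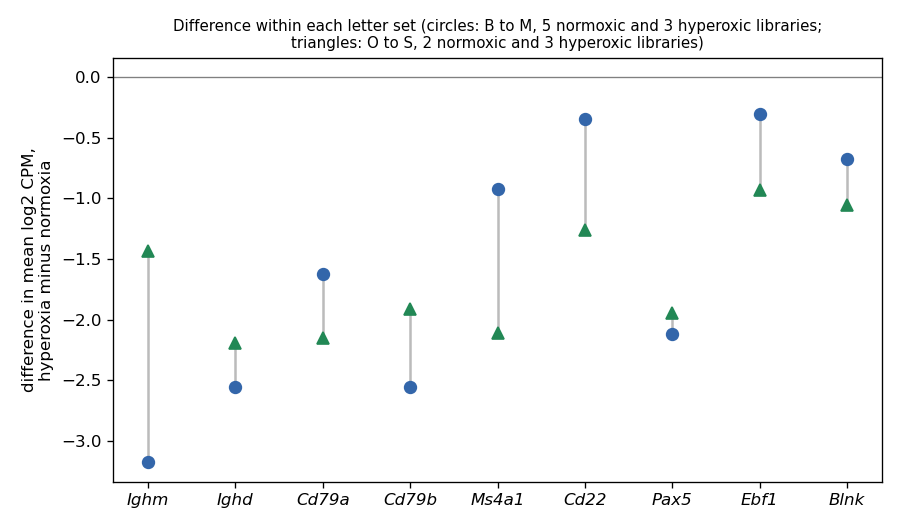
Difference in mean log2 CPM between hyperoxia and normoxia (vertical axis) for each gene within libraries B to M (circles, 5 normoxic and 3 hyperoxic) and within libraries O to S (triangles, 2 normoxic and 3 hyperoxic). Every point is below 0, and the sets lie farthest apart for Ighm, at −3.18 and −1.43.

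Whether the levels of the 9 genes rose and fell together among the libraries of a group was asked next. Of 18 correlations, each of 1 gene with the mean log2 CPM of the other 8 within 1 group, none passed an adjusted p of 0.05. The strongest within normoxia was that of Ighd, with Pearson's r = 0.84 (exact permutation p = 0.0145, adjusted p = 0.261) and Spearman's rho = 0.86 (exact permutation p = 0.0238, adjusted p = 0.429) over 7 libraries, and r = 0.80 without the 2 libraries farthest from the median. Within hyperoxia it was that of Cd79a, with r = −0.79 (exact permutation p = 0.0625, adjusted p = 0.535) and rho = −0.83 (exact permutation p = 0.0583, adjusted p = 0.525) over 6 libraries. It was 0.015 without the 2 farthest libraries, so that it rested on them.

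Other genes of B cells were followed with lists written from general knowledge, with earlier results of these data known, so that their counts are a description. Of 66 genes of other immunoglobulin chains, B cell surface receptors, receptor signalling and B lineage transcription factors, 51 were tested, and 27 were lower and 1 higher in hyperoxia at an adjusted p under 0.05 (edgeR), with a median log2 fold change of −0.82. Among all genes tested 10.8% were lower, and the median was −0.03. Genes filtered for low counts could not be called, such as Blk, a Src-family kinase of B cells, with 61 counts over the normoxic and 10 over the hyperoxic libraries, and Fcmr, the receptor for IgM, with 59 and 6.

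Light chain genes were lower too. Igkc, the kappa constant region, had means of 61.3 ± 25.8 (SD, n = 7) and 14.1 ± 6.51 CPM (SD, n = 6) in normoxia and hyperoxia, a log2 fold change of −2.09 (edgeR adjusted p = 0.00267). One normoxic library, at 9.76 CPM, was within the hyperoxic range. The lambda constant regions Iglc2 and Iglc3, which are close copies of each other, so that the counting could have split their reads, fell with log2 fold changes of −1.93 and −2.34. Igha, the constant region of IgA, was at 10.9 ± 6.21 and 6.12 ± 4.38 CPM and did not pass (log2 fold change −0.83, edgeR adjusted p = 0.227). The IgG constant regions and Ighe had too few counts to test.

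Of the surface and survival receptors 12 of 17 tested genes were lower and none was higher. Cr2, a receptor for complement fragments, stood at 31.7 ± 5.63 CPM (SD, n = 7) in normoxia and at 7.06 ± 3.30 CPM (SD, n = 6), a log2 fold change of −2.20 (edgeR adjusted p = 2.3e-05). Cd37, a tetraspanin, and Siglecg, a lectin related to CD22, fell with log2 fold changes of −2.11 and −1.71. In these 3 genes the groups did not overlap. Cd81, a tetraspanin made by most cells, was at 0.12 (edgeR adjusted p = 0.842), and Cd55, a regulator of complement, at −0.28 (edgeR adjusted p = 0.261).

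Of the signalling genes 6 of 16 tested were lower and 1 was higher. Bank1, a scaffold protein of B cells, stood at 34.3 ± 8.65 CPM (SD, n = 7) in normoxia and at 8.65 ± 3.29 CPM (SD, n = 6), a log2 fold change of −1.98 (edgeR adjusted p = 8.2e-05). Prkcb, the protein kinase C-beta of the NF-kappaB branch, and Pik3cd, the leukocyte catalytic subunit of PI3-kinase, fell with log2 fold changes of −1.23 and −1.68. Bcl10, which acts after protein kinase C in many cell types, was higher at 0.73 (edgeR adjusted p = 5.8e-04). The widely made adaptor Grb2 and ubiquitin ligase Cbl had log2 fold changes of 0.04 and 0.21 and did not pass.

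Of the transcription factors 6 of 14 tested were lower and none was higher. Bcl11a, needed early in B cell development, stood at 44.5 ± 10.4 CPM (SD, n = 7) in normoxia and at 15.0 ± 6.82 CPM (SD, n = 6), a log2 fold change of −1.60 (edgeR adjusted p = 2.8e-04). Ikzf3 and Ikzf1, which encode Aiolos and Ikaros, fell with log2 fold changes of −1.89 and −1.10, and Bach2, which holds back plasma cell formation, with −0.78. Foxo1, which endothelial cells also make, was at 0.01 (edgeR adjusted p = 0.973) and Id3 at −0.41 (edgeR adjusted p = 0.657), with 0.536 CPM in hyperoxia replicate 1 as its lowest value.

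Many genes of other B cell stages had few counts. Of 10 plasma cell genes 6 were tested and 1 was lower, namely Jchain, the joining chain of IgA and IgM, at −1.39 (edgeR adjusted p = 0.0237), while Sdc1, also an epithelial gene, and Xbp1, also a gene of secretory cells, did not pass at 0.06 and 0.17. Of 10 genes of pro-B and pre-B cells the recombinase genes Rag1 and Rag2 had 1 and 2 counts over all libraries and Vpreb2 and Igll1 none, and Vpreb3, a partner of immature heavy chains, fell with a log2 fold change of −1.93 (edgeR adjusted p = 0.00504). Erg and Il7r fell by 0.77 and 0.67 on the log2 scale, and the part of other cell types in their values was not tested. The list's only higher gene was Cd93, which capillary endothelium makes as well, at 2.20 (edgeR adjusted p = 1.7e-06). Among 4 tested germinal centre genes Mybl1 was higher, at 2.41 (edgeR adjusted p = 0.00143), from 2.05 ± 1.03 to 11.8 ± 7.57 CPM, and Fas and S1pr2 did not pass, at 0.20 and 0.10. The chemokine Cxcl13, which draws B cells, was higher, from 2.98 ± 1.56 to 9.0 ± 5.35 CPM (log2 fold change 1.63, edgeR adjusted p = 0.0182). The chemokine Cxcl12 and the survival factor Tnfsf13b (BAFF) had log2 fold changes of −0.40 and −0.48 and did not pass, although Cxcl12 passed without hyperoxia replicate 1 (−0.54, edgeR adjusted p = 0.00823).

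**Figure D5:**
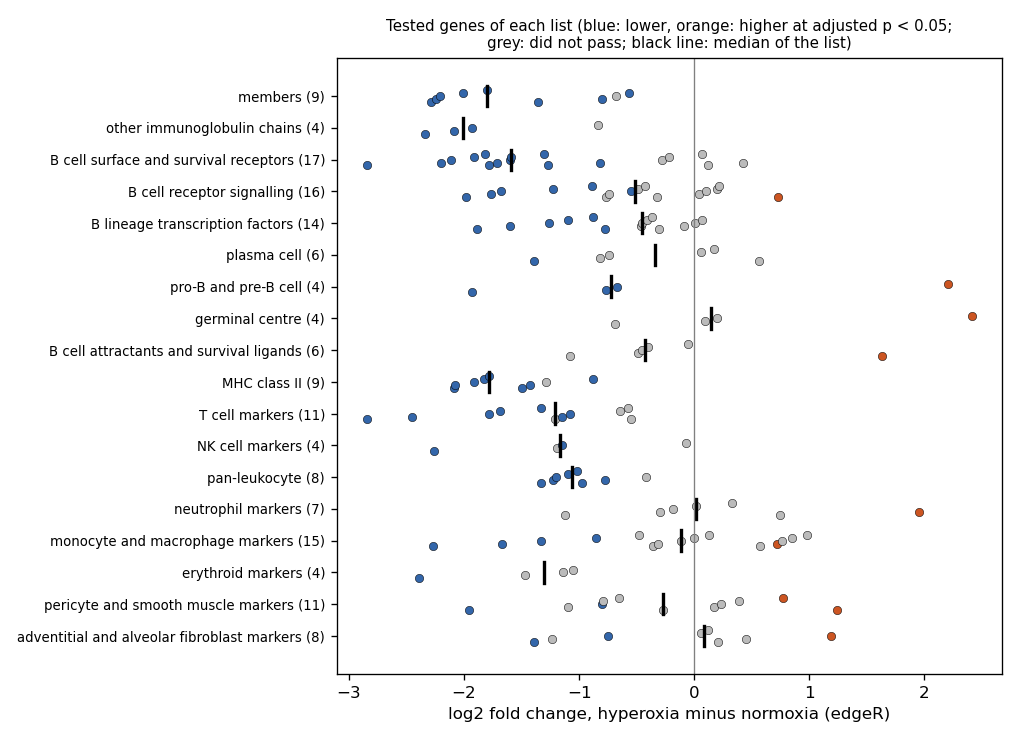
Log2 fold change of hyperoxia against normoxia (horizontal axis, edgeR) for the tested genes of each list (number tested in brackets), blue where lower and orange where higher at an adjusted p under 0.05, grey where not passed, with the median of each list as a black line. The median of the 9 genes is −1.80. Outside the B lineage lists, the medians of the MHC class II, erythroid, T cell, NK cell and pan-leukocyte lists are also below −1.

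Markers of other leukocytes were set beside the B lineage genes. Of the T cell markers 7 of 11 tested genes were lower, with a median log2 fold change of −1.21, and their summed level was 88.1 to 117 CPM in normoxia and 37.9 to 54.7 CPM in hyperoxia. Trbc1 was lower (edgeR adjusted p = 1.5e-04), from 4.29 to 7.19 CPM in normoxia to 0 to 1.56 CPM in hyperoxia, where it was at the floor, so that no fold is given. Trbc2, Cd2 and Cd8b1 fell with log2 fold changes of −2.45, −1.78 and −1.33, and the untested Cd3e and Trac had 28 and 59 counts over the normoxic and 7 and 7 over the hyperoxic libraries. Of the MHC class II genes, which B cells, dendritic cells and macrophages make, 8 of 9 tested were lower, with a median of −1.78. H2-Ob, a modulator of peptide loading that is made mainly by B cells, went from 20.1 ± 3.04 to 4.78 ± 2.28 CPM (log2 fold change −2.08, edgeR adjusted p = 9.4e-05). Of 8 genes made widely by leukocytes 7 were lower, with a median of −1.06, and Ptprc (CD45) was at −0.98. The NK cell markers had a median of −1.17, with 2 of 4 tested genes lower.

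Of 7 tested neutrophil markers 1 was higher and none was lower, with a median of 0.02, which was −0.04 with library size alone, −0.15 with limma on log values and 0.20 without hyperoxia replicate 1. Of 15 monocyte and macrophage markers 4 were lower and 1 higher, with a median of −0.11, which was −0.17 with library size alone, −0.39 with limma on log values and 0.12 without hyperoxia replicate 1. Their summed level, 2533 to 4396 CPM in normoxia and 782 to 1857 CPM in hyperoxia, came in normoxia mostly from Lyz2, the lysozyme gene that type II alveolar epithelium also makes, which was at 2947 ± 718 CPM (SD, n = 7) and 609 ± 329 CPM (SD, n = 6), a log2 fold change of −2.27 (edgeR adjusted p = 2.5e-04). The other lower genes were Siglecf of alveolar macrophages and Ccr2 and Ly6c2 of monocytes, at −1.33, −0.85 and −1.67 (edgeR adjusted p = 0.00706, 0.00806 and 0.0214), and Mrc1, the macrophage mannose receptor, was higher, at 0.72 (edgeR adjusted p = 0.00415). Csf1r and Chil3 passed only without hyperoxia replicate 1, Csf1r lower at −0.75 and Chil3 higher at 1.02 (edgeR adjusted p = 2.9e-04 and 5.2e-04). Of the erythroid markers, genes of red cells, 4 were tested and 1 was lower, namely Hbb-bt, a beta-globin gene, at −2.39 (edgeR adjusted p = 0.0189). All 4 had a log2 fold change below 0, with a median of −1.31, which was −1.87 with limma on log values, and their summed levels overlapped, at 194 to 3399 CPM in normoxia and 169 to 2863 CPM in hyperoxia. Of 8 tested fibroblast markers Dpp4 and Npnt were lower, at −1.39 and −0.75 (edgeR adjusted p = 2.0e-04 and 0.017), and Pdgfra was higher, at 1.19 (edgeR adjusted p = 1.1e-04). They had a median of 0.09, which turned to −0.17 without hyperoxia replicate 1, to 0.01 with library size alone and to −0.06 with limma on the deposited log values. The part of residual blood, and of each of these cell types, in the B lineage values was not tested.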

How the data were processed

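Lung RNA of 7 normoxic and 6 hyperoxic samples was read by Quant-seq. Reads were pseudoaligned by the authors with kallisto (BioJupies), and the submitters' processing notes name mm10 and limma 3.54.2; the transcript annotation and use of strand are not given in the sources used here. They deposited whole-number counts per gene symbol without normalization or filter (32544 symbols, 12826 with no count), and log10 values of CPM plus 1. Libraries of a group differed by more than sampling noise in all 36 pairs (chi-square per gene at least 3.79).

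Counts were tested with edgeR 4.0.16 (glmQLFit, glmQLFTest) under R 4.3.3, with TMM factors and the filterByExpr filter, on all libraries without covariates, and p-values were adjusted by Benjamini-Hochberg over 12496 genes. Calls used an adjusted p under 0.05, and the text says where a log2 fold change beyond 1.5 was also asked. Log2 CPM used a prior count of 2. The 95% intervals of ratios come from inverting the exact test. The fit was tested on simulated counts. Coordinates are from GENCODE M21 (GRCm38, the assembly of mm10), matched by symbol, and promoters from RefSeq.

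The 9 genes and the lists were chosen with earlier results of these data known. Genes named from the other lists come from a rule that picks, per list, up to 4 genes with the smallest adjusted p among those passed and the 2 most abundant not passed. Not all genes that it picks are reported here. Blk, Fcmr, Rag1, Rag2, Vpreb2, Igll1, Cd3e, Trac and Ly6c2 were named after their values were seen. Alternatives were DESeq2 1.42.0, limma-voom and limma 3.58.1 on the deposited log10 values, library size only, other filters, a block for the replicate number, a term for the letter set, and each library left out. Fits within a letter set were added after seeing the data. The replicate numbers were checked for pairing: the correlation of deviations between libraries with the same number was below 0 in 5 of 6 pairs, so that the numbers were not treated as pairs.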

Additional observations from a re-analysis of the deposited data

Results flagged for a closer look

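Outlying libraries were sought in the 9 genes and the total counts, 20 groups of 6 or 7 libraries in all, with Dixon's ratio of the gap beside the outermost library to the range of the group. The ratio was above its 95% critical value in 4 groups, where about 1 in 20 would be by chance. In hyperoxia, replicate 1 stood above the other libraries in Ms4a1, at 41.8 CPM (ratio 0.682), and in Cd22, at 42.4 CPM (ratio 0.703). The same library was the highest of 6 in 3 of the 9 genes and the lowest of 6 in 4. In normoxia, replicate 5 stood below the others in Pax5, at 6.74 CPM (ratio 0.580), and in its total count, 1607111 (ratio 0.612).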

How the results depend on the processing

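All 9 genes kept a negative log2 fold change under every alternative in which they were tested. The number of the 9 called lower was 6 to 9 over the fits that left out 1 library, where 1049 to 1699 of all genes were lower. It was 8 to 9 with DESeq2, limma-voom, limma on log values and library size only, where 1544, 1496, 1729 and 1579 of all genes were lower. With no filter it was 6, where 1190 of all genes were lower, and Ebf1 and Blnk did not pass. A minimum of 10 counts in every library removed Ighm, Ighd, Cd79b and Pax5, which had 9, 4, 2 and 6 counts in hyperoxia replicate 1. Of these genes only Cd79b was also under 10 elsewhere, with 8 counts in hyperoxia replicate 5. That minimum left 5 of the 9 genes to test, of which 5 were lower, against 13.6% of all genes in that fit. Of the 9 genes 1 passed both thresholds in it, and 16 of 31 tested companion genes were lower. Within libraries B to M the number called was 4. Cd22 passed with limma-voom, limma on log values, library size only and the minimum of 10 counts (adjusted p between 0.0118 and 0.0468), and without hyperoxia replicate 1. The number past both thresholds was 5 to 6, and that of companion genes lower was 24 to 31, without 1 library. With the replicate block, which drops normoxia replicate 7, 718 genes were higher and 626 lower in place of 1473 and 1346, 6 of the 9 genes were lower, Ebf1 and Blnk did not pass, and 0 of the 3 ratios to Cd79a passed (exact sign-flip test, adjusted p = 0.125 for each). That test cannot give a p below 0.0312 with 6 pairs, before adjustment over 8 genes, and the ratios of Ebf1, Cd22 and Blnk were 1.31, 1.14 and 1.09 in it. No hyperoxic library correlated best with the normoxic library of its number. Depth limits Cd79b and Ighd, with 2 and 4 counts in hyperoxia replicate 1.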

Other observations

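The variable segments of the receptor left almost no counts in these 3′ libraries. Of 183 heavy chain variable symbols 4 had a count, and their sum reached at most 2 counts in any library. Of 160 kappa symbols 8 had a count, with sums of at most 6 per library. The count of Igkc per count of Ighm had a median of 0.565 in normoxia (range 0.129 to 0.802) and 0.594 in hyperoxia (range 0.444 to 0.889), with the lowest value in a normoxic library.

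The genes whose deviations from the group means were most like the mean deviation of the 9 genes, among 10103 genes of at least 3 log2 CPM and over 13 libraries, were Fyn, Gm21244, Rnf150, 4931406P16Rik, Aig1, Wrn, Scd1, Nfatc3, Enpp4 and Hmgcs1. Their Pearson's r ran from 0.80 for Hmgcs1 to 0.87 for Fyn and, without hyperoxia replicate 1, from 0.795 to 0.876. They were ranked by this measure, so it is a description. Of these 10 genes Wrn and Scd1 were lower in hyperoxia, with log2 fold changes of −0.71 and −1.29 (edgeR adjusted p = 0.00769 and 1.0e-04), and the other 8 did not pass.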
